A study of Rattus norvegicus and Mus musculus with 251 samples.

Results

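The haemoglobin and erythroid genes described here are Hba-a1, Hba-a2, Hbb-bs, Hbb-bt and Alas2, 5 of the 46078 genes in the mouse count table. They were chosen by symbol, as genes whose RNA marks red blood cells and therefore the blood left in a tissue sample. No measured value served as the rule, but earlier results of these data were known when they were chosen. The series holds 251 libraries, of which the 62 mouse libraries were used. RNA came from 0.5 mm punches taken from coronal brain sections of C57BL6J mice of both sexes, sequenced as total RNA in read pairs of 75 bases. The prefrontal cortex (PFC) gave 30 libraries and the nucleus accumbens (NAc) gave 32. Mice drank saline solution (Sal) or morphine solution, and the morphine groups are labelled Chronic mor, Mor + 24h and Mor + 2W, the last pair sampled 24 hours and 2 weeks after morphine. In PFC there were 6 Sal, 8 Chronic mor, 9 Mor + 24h and 7 Mor + 2W libraries, and in NAc there were 7, 8, 9 and 8. By the labels every group held at least 3 female and 3 male libraries. The labels do not say that each library is a separate animal, so p-values measure the spread between these libraries.

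Haemoglobin carries oxygen in red blood cells and is built from alpha and beta chains with haem groups. In the adult C57BL mouse the alpha chains come from the neighbouring genes Hba-a1 and Hba-a2, and the beta chains from Hbb-bs and Hbb-bt. Alas2 is the erythroid form of the first enzyme of haem synthesis, whereas Alas1 serves other tissues. Red cells of adult mammals have no nucleus, but young red cells (reticulocytes) still carry globin RNA, and low globin expression has been described in brain cells too.

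The globin genes come in near-identical pairs, and their sequences are shown first because they limit what a count can say. The coding sequences of Hba-a1 and Hba-a2 are each 429 bases long in the GENCODE M21 annotation of GRCm38 and differ at 1 base, C381T, counted from the A of the start codon with the Hba-a1 base first. Those of Hbb-bs and Hbb-bt are 444 bases long and also differ at 1 base, C417T, with the Hbb-bs base first. Neither difference changes the protein. Below, for each gene, stand 75 bases of coding sequence from the third exon, 5′ to 3′, the length of a read, with the differing base in capitals.
Hba-a1: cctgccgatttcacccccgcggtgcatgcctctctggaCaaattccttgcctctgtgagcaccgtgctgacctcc
Hba-a2: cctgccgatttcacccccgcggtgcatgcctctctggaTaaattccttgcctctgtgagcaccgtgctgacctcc
Hbb-bs: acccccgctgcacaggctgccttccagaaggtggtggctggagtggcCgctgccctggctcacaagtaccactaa
Hbb-bt: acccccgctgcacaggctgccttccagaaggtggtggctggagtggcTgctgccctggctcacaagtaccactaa
These stretches lie at chr11:32284305-32284379 and chr11:32297122-32297196 on the forward strand, and at chr7:103826665-103826739 and chr7:103812656-103812730 on the reverse strand.

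The genes are protein-coding. Hba-a1 spans chr11:32283511-32284465 and Hba-a2 chr11:32296489-32297298. Hbb-bs spans chr7:103826534-103828096 and Hbb-bt chr7:103812524-103813996. Alas2 spans chrX:150547375-150570638 and overlaps Apex2 and Mir3620. Of the 75-base stretches of the main transcript, 389 of 625 in Hba-a1 and 389 of 480 in Hba-a2 also occur in the other alpha-globin gene. The beta-globin genes shared 356 of 554 in Hbb-bs and 356 of 629 in Hbb-bt, and Alas2 shared 0 of 1963. No stretch of any of these genes was found in a transcript of a gene outside the group. Hba-a2 kept the fewest stretches of its own, 91, against 236 in Hba-a1, 198 in Hbb-bs and 273 in Hbb-bt. In the deposited table, reads aligned to several places stand in a row of their own, with a median of 14.7% per library. The split of counts within a globin pair is therefore uncertain, and the Hba-a2 count is the most restricted.

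Counts per gene summed to 5182601 to 41532464 per PFC library and 22387525 to 43963295 per NAc library. The PFC library numbered 10 had the lowest sum, with 21.1% of its reads unaligned. The PFC and NAc libraries numbered 27 are labelled female and had 2106 and 2569 counts of the Y-linked gene Ddx3y, within the 1221 to 4294 of the male libraries and above the 0 to 28 of the other 24 female libraries. In NAc, 2 libraries (6 and 25) had summed striatal markers within the PFC range, and NAc library 24 had summed cortical markers of 624 CPM (counts scaled to library size), against 91.0 CPM in the next highest NAc library. By these counts Chronic mor holds 2 female libraries in each region where the labels give 3. Calls that change without these libraries are given below. The labels name neurons as the cell type, while markers of astrocytes, oligodendrocytes and microglia were detected in every library.

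Globin counts were low in both regions. Reads aligned to several places are not in these counts, so globin RNA can be undercounted by an unknown amount. The 4 globin genes together took 0.00164% to 0.00679% of the gene counts in PFC libraries and 0.00167% to 0.00555% in NAc libraries. Scaled to library size, their sum was 44.2 ± 17.7 CPM (SD, n = 30) in PFC and 33.4 ± 10.1 CPM (SD, n = 32) in NAc. Per kilobase of exon, Hbb-bs had the highest level, 33.7 ± 14.6 CPM per kilobase in PFC and 31.04 ± 9.16 in NAc (SD). Hba-a1 followed with 17.96 ± 12.3 in PFC and 8.91 ± 4.10 in NAc on the same scale. Hba-a2, Hbb-bt and Alas2 lay lower, at 2.94, 2.49 and 1.79 CPM per kilobase in PFC and 1.53, 1.84 and 0.69 in NAc. In PFC these 3 means lay within their SDs of each other, whereas in NAc Alas2 lay below Hbb-bt by more than the SD of either.

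**Figure D1:**
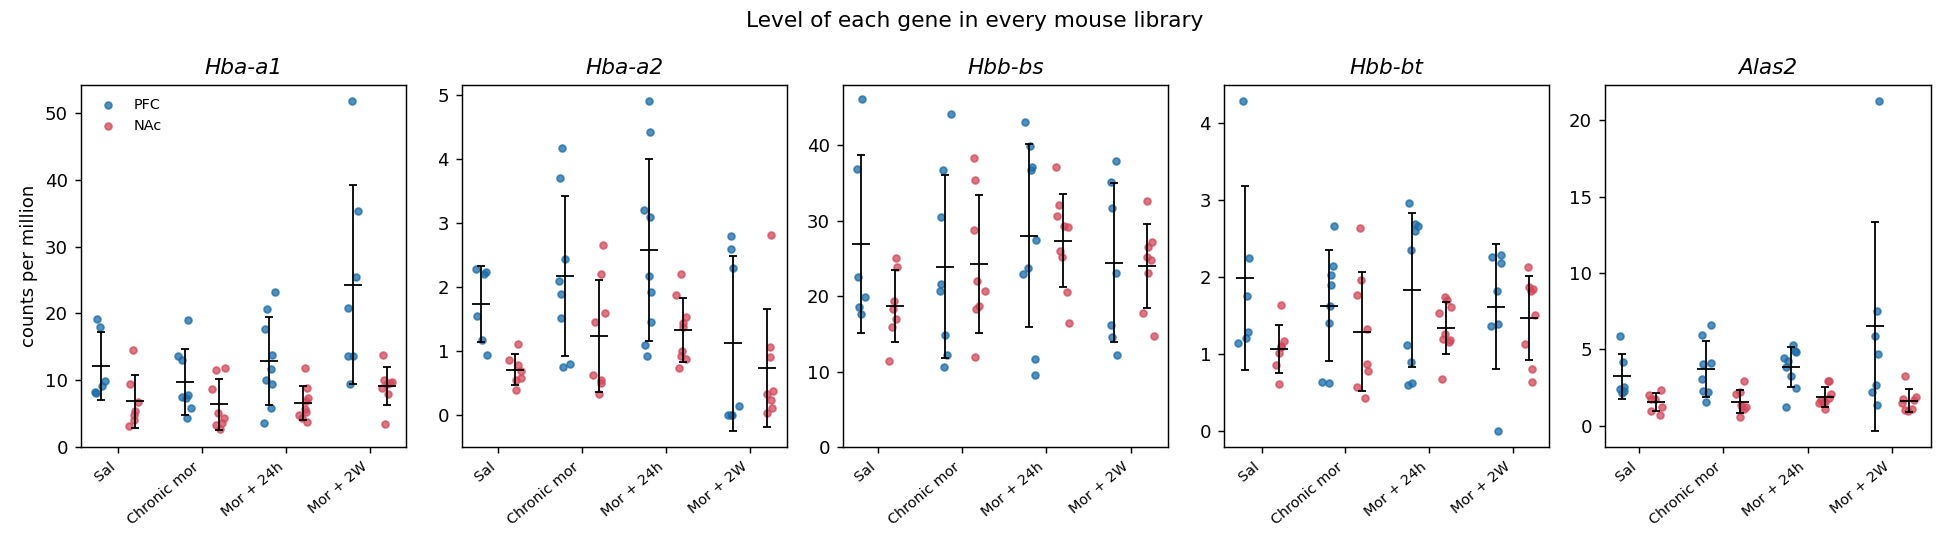
Level of each gene in every mouse library, in CPM on a linear axis, by treatment; points are libraries (PFC blue, NAc red) and black bars the mean ± SD. Hbb-bs spans a similar range in both regions, whereas Hba-a1 and Alas2 are lower in NAc, and the highest Hba-a1 (51.8 CPM) and Alas2 (21.2 CPM) are both in PFC library 10.

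The embryonic globins, looked up after the levels above had been seen, had few counts or none. Hbb-bh1 and Hbb-bh2 had 0 counts in all 62 libraries, and Hba-x had 1 count in 1 PFC library. Hbb-y was at 0 in 25 of 30 PFC and 25 of 32 NAc libraries and reached at most 12 counts. Red cell markers were near 0 as well: the band 3 gene Slc4a1 reached at most 15 counts in a library. Over the 4 red cell markers found in the table, the summed level ran from 0 to 0.485 CPM in PFC and from 0 to 0.411 CPM in NAc. Among these markers Hemgn was at 0 in all 30 PFC libraries. None of the 4 passed the low-count filter, so no change in them was detectable at this depth.

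The morphine groups were first set against saline within each region. None of the 5 genes was called by edgeR's quasi-likelihood test in any of the 6 stage comparisons, at an adjusted p under 0.05 over all genes tested. In PFC, 0 of 5 genes were called under Chronic mor, where 0.417% of 17966 genes were called, and at an unadjusted p under 0.05 there were 0 of 5. At Mor + 24h 0 of 5 were called, against 0.0779% of all genes, and at Mor + 2W 0 of 5, against 0.00557%. In NAc, 0 of 5 were called under Chronic mor, at Mor + 24h and at Mor + 2W, against 1.69%, 0.163% and 0.00544% of 18382 genes. At an unadjusted p under 0.05 in edgeR there were 3 of the 5 genes in PFC at Mor + 2W, against 904 of 17966 genes tested. In NAc at Mor + 24h there were 2 of 5, against 2218 of 18382. The other 4 comparisons had 0 of 5. Over all genes these had 1422 (Chronic mor) and 541 (Mor + 24h) in PFC, and 2785 (Chronic mor) and 1183 (Mor + 2W) in NAc. DESeq2 also called 0 of 5 in each. The comparisons within a region share their saline libraries.

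Hbb-bs, the beta-globin gene with the higher count, had medians between 18.3 and 29.1 CPM in all 8 groups. In PFC its lowest, median and highest levels were 17.6, 21.2 and 46.1 CPM in Sal, 10.6, 21.1 and 44.1 CPM under Chronic mor, 9.52, 27.5 and 43.1 CPM at Mor + 24h, and 12.2, 23.03 and 37.9 CPM at Mor + 2W. In NAc they were 11.3, 18.3 and 25.1 CPM in Sal, 11.99, 21.3 and 38.3 CPM under Chronic mor, 16.4, 29.1 and 37.1 CPM at Mor + 24h, and 14.7, 24.98 and 32.7 CPM at Mor + 2W. All groups of a region overlapped. The NAc difference at Mor + 24h was a log2 fold change of 0.54 ± 0.20 (SE; 95% interval 0.13 to 0.95; edgeR p = 0.0109, adjusted p = 0.273), and it did not pass the threshold.

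Hba-a1, the alpha-globin gene with the higher count, had its highest group mean at Mor + 2W in both regions. In PFC the lowest, median and highest levels were 8.16, 9.53 and 19.2 CPM in Sal and 9.37, 20.8 and 51.8 CPM at Mor + 2W. Under Chronic mor they were 4.29, 7.62 and 19.02 CPM, and at Mor + 24h 3.64, 11.8 and 23.2 CPM. In NAc they were 3.11, 5.36 and 14.5 CPM in Sal, 2.70, 4.74 and 11.9 CPM under Chronic mor, 3.80, 5.77 and 11.9 CPM at Mor + 24h, and 3.39, 9.58 and 13.8 CPM at Mor + 2W. These ranges overlapped throughout. In PFC the log2 fold change at Mor + 2W against Sal was 0.97 ± 0.37 (SE; 95% interval 0.21 to 1.72; edgeR p = 0.0142, adjusted p = 0.855), and it was 0.58 ± 0.41 (SE) without PFC libraries 9 and 10.

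Alas2, the enzyme gene, was measured at 2.16, 2.45 and 5.84 CPM (lowest, median and highest) in PFC Sal and at 1.37, 4.72 and 21.2 CPM in PFC Mor + 2W. Under Chronic mor in PFC it was at 1.56, 3.53 and 6.59 CPM, and at Mor + 24h at 1.24, 4.196 and 5.26 CPM. The value of 21.2 CPM belongs to library 10 alone, and the next highest PFC library had 7.48 CPM. In NAc the group medians ran from 1.30 to 1.75 CPM and the groups overlapped. For PFC Mor + 2W against Sal the log2 fold change was 0.95 ± 0.46 (SE; edgeR p = 0.0467, adjusted p = 0.947). It was 0.28 ± 0.40 (SE) without library 10, 1.22 ± 0.41 (SE) without library 9, the lowest of the group, and 0.63 ± 0.42 (SE) without both.

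Hbb-bt, the minor beta-globin gene, had group means of 1.61 to 1.98 CPM in PFC and 1.06 to 1.46 CPM in NAc. Its largest stage difference was 0.46 ± 0.32 (SE) on the log2 scale, in NAc at Mor + 2W, with an edgeR adjusted p of 0.882. For all 5 genes and both regions, each group in the order of the means overlapped the next one. The gap between neighbouring means never exceeded the larger of their SDs, the widest being 0.947 SD for Hbb-bs between NAc Mor + 2W and NAc Sal.

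**Figure D2:**
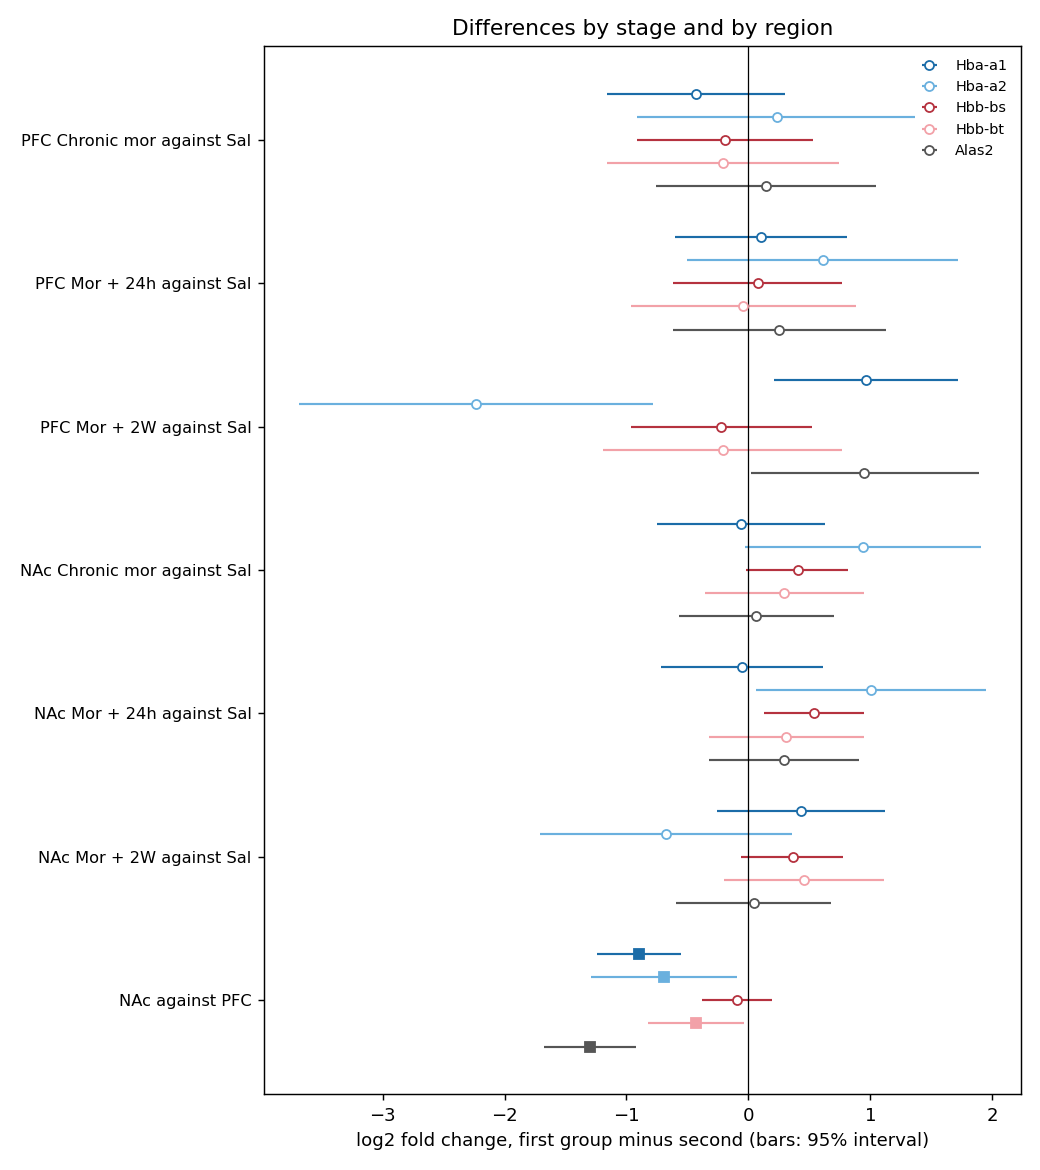
Log2 fold change of each gene (horizontal axis, first group minus second) for the 6 stage comparisons and for NAc against PFC, with 95% intervals as bars, filled squares where the edgeR threshold was passed and open circles where it was not. Only NAc against PFC holds filled squares, for Hba-a1, Hba-a2, Hbb-bt and Alas2, and the interval of Hba-a2 in PFC Mor + 2W is the widest.

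Hba-a2, the alpha-globin gene with the lower count, had its lowest shares in libraries of the same 4 numbers in both regions, with a clear gap in PFC only. As a share of the alpha-globin counts (Hba-a1 plus Hba-a2) it was 5.73% to 28.6% in 26 PFC libraries, with a median of 16.1%. In the other 4 PFC libraries, numbered 8, 9, 10 and 15, the counts were 0 of 530, 4 of 1038, 0 of 268 and 0 of 299. Taking 3 counts as the limit that a count of 0 allows, the share was at most 0.566% in library 8, 1.12% in library 10 and 1.0% in library 15, and exact 95% Clopper-Pearson intervals reached 0.694%, 1.37% and 1.23%. The share in library 9 was 0.385% (interval 0.105% to 0.984%). In NAc the same numbers had 1 of 328, 4 of 363, 12 of 364 and 7 of 297 counts, or 0.305% to 3.30%, against 4.53% to 28.7% in the other 28 NAc libraries. The exact interval of NAc library 10 (1.715% to 5.69%) overlapped that of NAc library 12 (2.43% to 7.62%), which is not among these numbers. These intervals and limits cover counting error only and take counts as independent. In PFC libraries 8, 9 and 10 the counts of all 5 genes were even. The same held in PFC libraries 11, 19, 27 and 31 and in NAc libraries 1, 6 and 11, so even counts are not particular to low Hba-a2. The intervals and limits would be too narrow if counts came in pairs, which was not tested.

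All 4 of these numbers belong to Mor + 2W, and numbers 8, 9 and 10 are all of its female libraries in both regions. The other PFC libraries of the group, 11, 13 and 14, had shares of 15.9%, 16.9% and 8.27%. In NAc, libraries 11, 13 and 14 had 20.99%, 16.9% and 10.7%, and library 12, which has no PFC partner, had 4.53% (exact 95% interval 2.43% to 7.62%). Hba-a1 was at 20.8, 35.4 and 51.8 CPM in PFC libraries 8, 9 and 10, above the PFC median of 12.4 CPM, and at 9.37 CPM in library 15, below it. This pattern was found by looking at the values and is given with no test. The labels do not say what the numbers stand for.

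**Figure D3:**
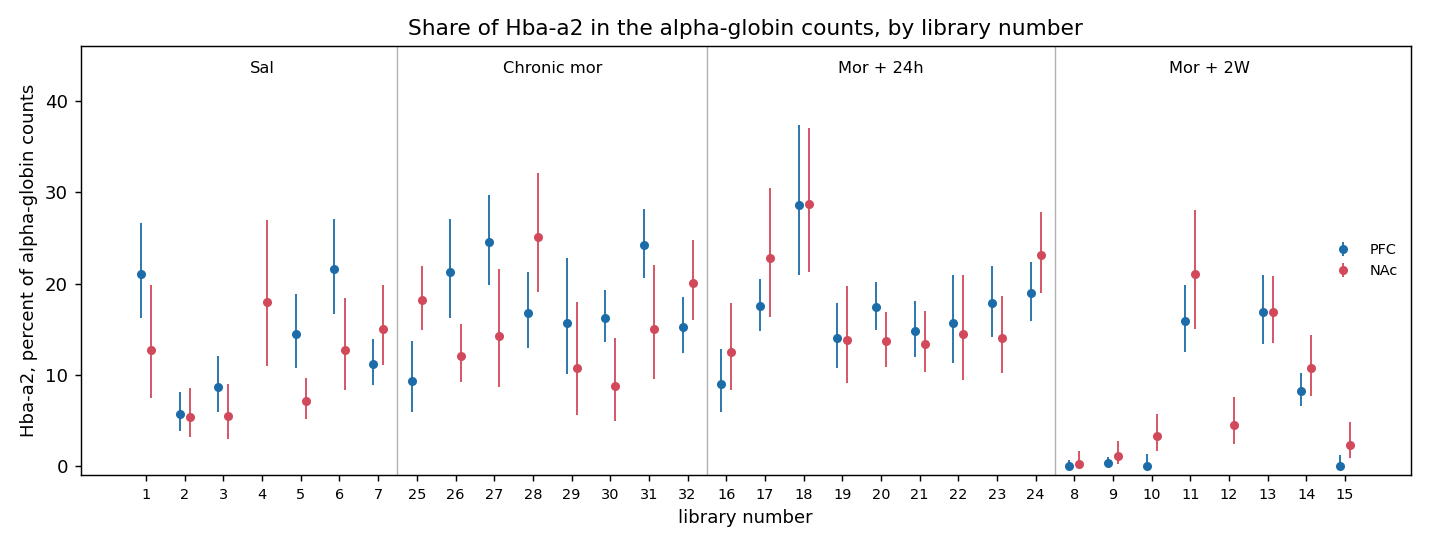
Hba-a2 as a percent of the alpha-globin counts (vertical axis) for each library number (horizontal axis), grouped by treatment; points are libraries (PFC blue, NAc red) and bars exact 95% binomial intervals. Numbers 8, 9, 10 and 15, all Mor + 2W, lie at 0% to 3.30% in both regions. The rest of the PFC libraries lie between 5.73% and 28.6%, and the rest of the NAc libraries between 4.53% and 28.7%.

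The PFC comparison of Mor + 2W with Sal includes these libraries. At Mor + 2W it stood at -2.23 ± 0.71 on the log2 scale against Sal (SE; 95% interval -3.69 to -0.78; edgeR p = 0.00394, adjusted p = 0.855). Without a sex term the value was -0.56 ± 0.69 (SE), and without PFC libraries 9 and 10, which leaves 1 female in that group, -4.24 ± 1.43 (SE). Leaving out library 9 alone gave -4.23 ± 1.29 (SE). Group levels were 0.938, 1.87 and 2.28 CPM (lowest, median and highest) in Sal and 0, 0.137 and 2.79 CPM at Mor + 2W. Both the lowest and the highest of these values lay in Mor + 2W. In NAc the lowest, median and highest levels of Hba-a2 were 0.390, 0.683 and 1.12 CPM in Sal, 0.324, 1.04 and 2.65 CPM under Chronic mor, 0.737, 1.38 and 2.21 CPM at Mor + 24h, and 0.030, 0.352 and 2.82 CPM at Mor + 2W, and the groups overlapped. The NAc log2 difference at Mor + 24h was 1.01 ± 0.46 (SE; 95% interval 0.06 to 1.95; edgeR p = 0.0379, adjusted p = 0.383).

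The sexes were compared over all treatments, and 0 of 5 genes were called in either region, against 0.0334% of genes in PFC and 0.0598% in NAc. In NAc the edgeR adjusted p was 0.918 for each of the 5. In PFC the female minus male log2 difference of Hba-a2 was -1.43 ± 0.44 (SE; edgeR p = 0.00306, adjusted p = 0.946). Its mean in PFC was 0.0457 CPM in females (numbers 8, 9 and 10) and 1.92 CPM in males at Mor + 2W. Female and male means were 1.435 and 2.02 CPM in Sal and 1.58 and 2.52 CPM under Chronic mor. At Mor + 24h the females were higher, 2.84 against 2.36 CPM. Without number 27, whose sex genes go against its label, the PFC difference of Hba-a2 was -1.47 ± 0.47 (SE). The NAc difference of Hba-a2 went from -0.67 ± 0.33 to -0.56 ± 0.33 (SE), and again 0 of 5 genes were called in either region. Whether the stage effects differed between the sexes was tested directly, and 0 of 5 genes were called, against 0% of genes in PFC (846 genes at an unadjusted p under 0.05 in edgeR, 47 called by DESeq2) and 0.0544% in NAc. Hba-a2 again had the lowest adjusted p, 0.701 in PFC and 0.481 in NAc. In both regions numbers 8, 9 and 10 are the Mor + 2W females of these tests.

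Some of the 5 genes were called between the regions, whereas none was called between stages. The comparison of regions drew on all 62 libraries, so the calls do not rank the sizes of the differences. In size, some stage fold changes were larger than those between regions and some were smaller. Alas2, Hba-a1, Hba-a2 and Hbb-bt were lower in NAc than in PFC, and Hbb-bs did not pass the test. This made 4 of 5 genes called by edgeR, all lower in NAc, where 66.2% of 19266 genes were called and 29.7% were called lower in NAc. With so many genes called, the count of members says little by itself. The median log2 fold change was -0.69 over the 5 genes and 0.07 over all genes tested.

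Alas2 had the largest difference. It was at 4.30 ± 3.60 CPM in PFC (SD, n = 30), from 1.24 to 21.2 with a median of 3.94, and at 1.66 ± 0.67 CPM in NAc (SD, n = 32), from 0.54 to 3.27 with a median of 1.61. The ranges overlapped, and NAc was lower in 28 of the 30 numbers present in both regions. In log2 units NAc minus PFC was -1.30 ± 0.19 (SE; edgeR adjusted p = 3.74e-08), a level 2.46-fold lower in NAc. Without PFC libraries 9 and 10 it was -1.20 ± 0.17 (SE; edgeR adjusted p = 2.54e-08).

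Hba-a1 was at 14.6 ± 9.995 CPM in PFC (SD), from 3.64 to 51.8 with a median of 12.4, and at 7.23 ± 3.33 CPM in NAc (SD), from 2.70 to 14.5 with a median of 6.83. NAc was lower in 24 of 30 numbers. In log2 units NAc minus PFC was -0.90 ± 0.17 (SE; edgeR adjusted p = 1.16e-05), and -0.78 ± 0.18 (SE; edgeR adjusted p = 0.000178) without PFC libraries 9 and 10. Hbb-bs, by contrast, was at 25.9 ± 11.2 CPM in PFC and 23.8 ± 7.04 CPM in NAc (SD), lower in NAc in 16 of 30 numbers. Its log2 fold change of -0.10 ± 0.14 (SE) had a 95% interval of -0.38 to 0.19 and an edgeR adjusted p of 0.572.

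The remaining differences were closer to the threshold. For Hba-a2 the log2 difference was -0.69 ± 0.30 (SE; edgeR adjusted p = 0.038), and Hbb-bt one of -0.43 ± 0.19 (SE; edgeR adjusted p = 0.047). Without number 27 neither was called (edgeR adjusted p = 0.075 and 0.0825). Without PFC libraries 9 and 10, Hba-a2 was at -0.16 ± 0.81 (SE; edgeR adjusted p = 0.928), and without numbers 8, 9, 10 and 15 and with no sex term it was at -1.0 ± 0.22 (SE; edgeR adjusted p = 9.2e-05). Hbb-bt was not called without NAc libraries 6, 24 and 25 (edgeR adjusted p = 0.0734), nor with the library number as a block (0.0885), with median-of-ratios scaling (0.0677), with no low-count filter (0.0762) or with library sizes that leave out the 5 genes (0.0506). The test of region by stage asks if morphine effects were unequal in the regions, and 0 of 5 genes were called, against 0.0363% of all genes. Their adjusted p was 0.986 for each in edgeR.

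Because Hbb-bs did not follow the others, ratios within a library are described. They were chosen after these differences had been seen and restate them, so they are given with no test. Their absolute size also depends on the share of reads that could be placed in each gene. The ratio of alpha-globin to beta-globin counts was 0.67 ± 0.57 in PFC (SD), from 0.302 to 3.19 with a median of 0.495, and 0.33 ± 0.13 in NAc (SD), from 0.193 to 0.764 with a median of 0.318. The ratio was lower in NAc in 25 of 30 numbers. On the log2 scale the NAc mean minus the PFC mean was -0.86. Without PFC libraries 9 and 10, whose ratios were 2.11 and 3.19, the difference was -0.71, and the PFC ratio was then at most 0.840.

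Alas2 counts per Hbb-bs count were 0.188 ± 0.218 in PFC and 0.0708 ± 0.0249 in NAc (SD). They were lower in NAc in 29 of 30 numbers, with a log2 difference of -1.17. The share of Hbb-bt in the beta-globin counts was 6.52% ± 2.70 in PFC and 5.17% ± 1.43 in NAc (SD), a difference of -1.35 percentage points. The share of Hba-a2 in the alpha-globin counts was 14.1% ± 7.53 in PFC and 13.1% ± 7.07 in NAc (SD), lower in NAc in 15 of 30 numbers.

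**Figure D4:**
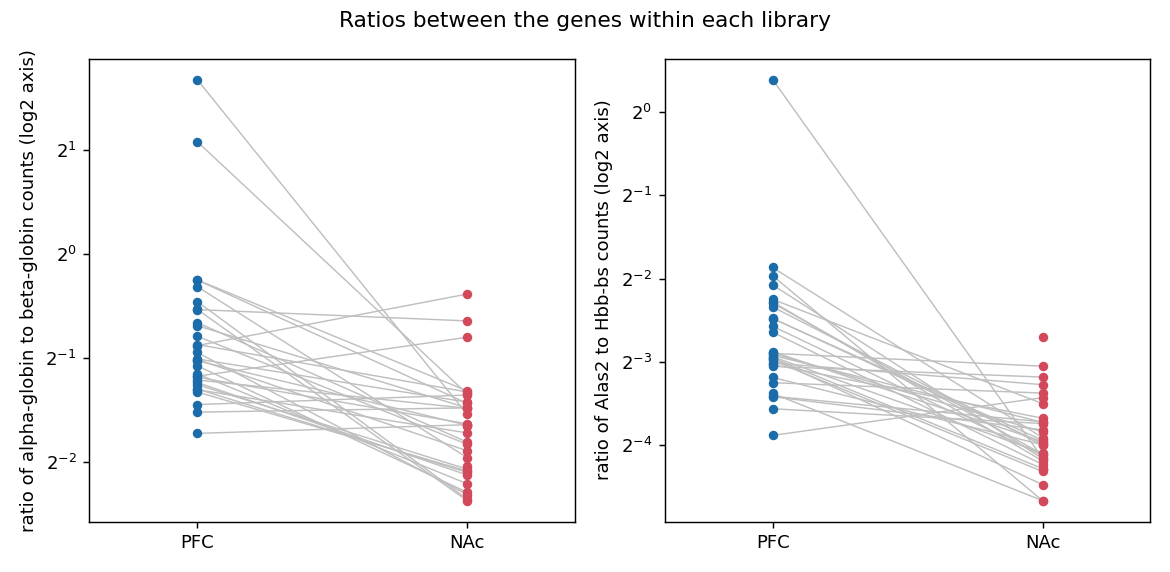
Ratio of alpha-globin to beta-globin counts (left) and of Alas2 to Hbb-bs counts (right) in each library, on log2 axes, by region, with grey lines joining the libraries of 1 number. Most lines fall from PFC to NAc, 25 of 30 on the left and 29 of 30 on the right, and PFC library 10 is the highest point in both panels (3.19 and 1.31).

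Markers of blood vessels moved with the region as well. Against 29.7% of all genes called lower in NAc, 8 of 9 endothelial markers were, with a median log2 fold change of -0.84, and their summed level ran from 252.5 to 418.0 CPM in PFC and from 91.0 to 293.6 CPM in NAc. The cell adhesion gene Pecam1 was at 14.2 CPM in NAc and 29.8 CPM in PFC. Of 7 mural cell markers 7 were called lower, with a median of -1.03, summing to 191.0 to 376.9 CPM in PFC and 56.9 to 226.5 CPM in NAc. No endothelial or mural marker was at 0 in all libraries. Of 5 tested platelet markers 2 were higher and 3 lower, and none of 5 tested neutrophil markers was called. Brain cell markers moved as well: 5 of 5 neuron and 4 of 5 astrocyte markers were lower in NAc, and 5 of 5 oligodendrocyte and 4 of 5 microglia markers higher. As 66.2% of all genes were called in either direction, these counts of few markers say little by themselves. The part of vessel or blood content in the globin and Alas2 differences was not tested, and in punched tissue fewer cells of a type and less RNA per cell cannot be told apart.

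Other genes of the haem pathway differed in both directions. Of 11 haem synthesis genes tested, 5 were called higher and 3 lower in NAc, with a median log2 fold change of 0.09. As 66.2% of all genes were called in this comparison, neither this count nor those of the lists that follow stands out as a result about the list. Alas1, the form of the enzyme used outside red cells, was lower in NAc (42.9 against 61.7 CPM, log2 fold change -0.51), while Abcb10, a mitochondrial transporter, and Uros, an enzyme of the pathway, were higher by 0.64 and 0.49. Of 14 erythroid genes tested, 3 were called higher and 7 lower. The largest difference was in Gypc, a membrane glycoprotein gene, at 0.58 CPM in NAc and 2.49 CPM in PFC. Next came Rhd, higher in NAc by 1.55 on the log2 scale, and Ube2l6 and Tal1, at -1.32 and -1.25. Rhd was near the floor, with 0 counts in 14 of 30 PFC and 7 of 32 NAc libraries. Its means were 0.0587 CPM in PFC and 0.154 CPM in NAc. For Tal1 the PFC median was 1.25 CPM, below its PFC mean of 2.55 CPM, and the highest PFC library had 17.35 CPM.

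Among 11 genes that handle free haemoglobin and haem, 2 were called higher and 3 lower in NAc. The haemoglobin scavenger receptor gene Cd163, a marker of macrophages at vessels, was at 0.56 CPM in NAc and 1.91 CPM in PFC (log2 fold change -1.80, edgeR adjusted p = 1.1e-09). Of the 4 other globins tested, neuroglobin (Ngb) and cytoglobin (Cygb) were called higher in NAc, by 2.13 and 0.36 on the log2 scale, and none was lower. In the stage comparisons 0 of 97 list genes tested in PFC and 0 of 100 in NAc were called in any contrast.

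Levels in the PFC and NAc libraries that bear the same number were then compared, since the labels give 30 numbers to both regions. After subtracting the mean of each region, treatment and sex, Hbb-bs varied together in same-numbered libraries, with Pearson's r of 0.586 (permutation p = 0.00064, adjusted p = 0.0032 over 5 genes) and Spearman's rho of 0.531 (permutation p = 0.00318, adjusted p = 0.0159). Without the 2 numbers farthest from the median in PFC, r was 0.548. Over all 19266 genes tested the same r had a median of 0.069 and a 90th percentile of 0.372. For Hba-a1 r was 0.406 (permutation p = 0.0261, adjusted p = 0.0434) and rho 0.399 (permutation p = 0.0289, adjusted p = 0.0723). Without 2 numbers this r fell to 0.244, so its size depended on them. For Hba-a2 r was 0.458 (permutation p = 0.0112, adjusted p = 0.028) and rho 0.330 (permutation p = 0.0757, adjusted p = 0.126). Its r was 0.189 without 2 numbers, so the size of this r depended on them too. Without subtracting group means, r of Hba-a2 was 0.715, and also 0.715 without 2 numbers; numbers 8, 9 and 10 fill 1 group and sex, so subtraction removes what they share. Hbb-bt and Alas2 had r of -0.013 and 0.110 (permutation p = 0.947 and 0.563) and rho of 0.035 and 0.123 (permutation p = 0.855 and 0.517).

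**Figure D5:**
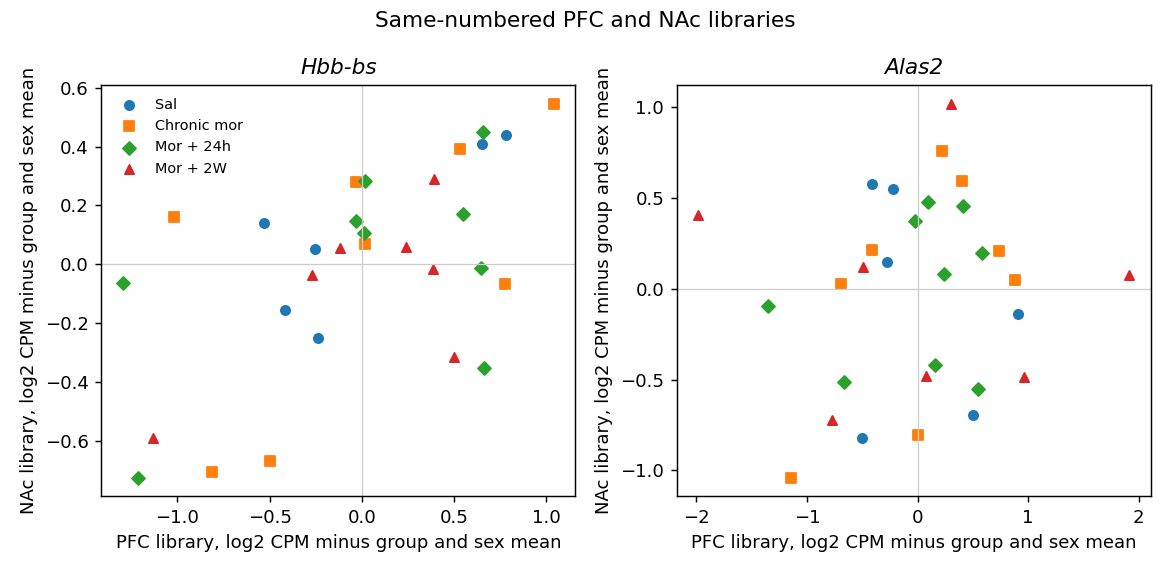
Deviation of Hbb-bs (left) and Alas2 (right) from the treatment and sex mean in the PFC library (horizontal axis) and the NAc library (vertical axis) of each of 30 numbers, in log2 CPM, with symbols for the treatment. Hbb-bs rises along the diagonal (r = 0.586), and Alas2 shows no such slope (r = 0.110).

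Within a region most pairs of the genes varied together across libraries, after removing treatment and sex means. The points share library and depth, and 20 relations were computed, 10 per region. Hba-a1 with Hbb-bs had r of 0.791 in PFC (permutation p = 2e-05, adjusted p = 0.0002; rho 0.806, permutation p = 1e-05) and 0.699 in NAc (permutation p = 2e-05, adjusted p = 0.0002; rho 0.649, permutation p = 0.00017). Without the 2 farthest libraries these were 0.738 and 0.739. Alas2 with Hbb-bs had r of 0.601 in PFC (adjusted permutation p = 0.000978; rho 0.682) and 0.654 in NAc (adjusted permutation p = 0.00045; rho 0.643). Of the 20 relations 19 had a positive r, and 5 had an adjusted permutation p over 0.05. Without removing the means, Hba-a1 with Hba-a2 in PFC went from 0.517 (adjusted permutation p = 0.00633) to -0.206 (0.364), and Hba-a2 with Alas2 in PFC from 0.315 to -0.006. The relation with a negative r was Hbb-bt with Alas2 in PFC, where r was -0.082 (permutation p = 0.659, rho 0.397), and 0.680 without PFC libraries 9 and 10. Library 10, the shallowest, had 110 counts of Alas2 and 0 of Hbb-bt.

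Genes whose levels followed the summed globin counts most closely were sought among 14066 candidates over the 62 libraries, again after removing group means. The highest r was 0.659 for Dnaaf2, a factor for assembling cilia motors, followed by 0.641 for Ndufaf1, a factor for assembling respiratory complex I, and 0.633 for the ribosomal protein gene Rpl8. Of the 12 highest, Rpl8, Rps14, Rpl9 and Rpl9-ps6 are ribosomal protein genes or a pseudogene of one, and Tcp1 and Cct7 encode chaperonin subunits. These values were higher in PFC than in NAc: Rpl8 had r of 0.741 in PFC and 0.265 in NAc, and Ndufaf1 had 0.672 and 0.607. The most negative values were -0.595 for Atp8b2, -0.563 for Pkd1 and -0.552 for Slc45a4. By comparison Alas2, which is not in the sum, had r of 0.655. The medians over the endothelial, mural, platelet and neutrophil lists were 0.09, 0.04, -0.06 and 0.08, against -0.04 for all genes tested. These are descriptions across libraries that share depth and RNA composition, with no test.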

How the data were processed

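For the mice, the authors deposited unnormalized read counts, a whole number for each gene and library. The submitters' processing notes name FastQC, cutadapt, STAR, RSEM, Trimmomatic and HISAT2 and the builds GRCm38 and Rnor_6.0, and the role of each, the annotation and the use of strand are not given in the sources used here. Rows for reads outside genes, ambiguous, of low quality, unaligned or aligned to several places (medians of 5.43%, 0.83%, 0.33%, 0.57% and 14.7%) and reporter rows stayed out of library sizes and tests. The rat table was not used here.

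Symbols were matched for 45143 of 46078 identifiers, and positions and transcripts are from GENCODE M21 (GRCm38). Promoter and protein sequences of these genes were not used here. Each region was fitted with edgeR 4.0.16 (R 4.3.3) after its expression filter and TMM scaling, with a mean for each treatment and sex, and NAc against PFC over all 62 libraries. Effects are averaged over the sexes, and a gene is called where its p, adjusted by Benjamini-Hochberg over all genes tested, is under 0.05. CPM use TMM-scaled library sizes, log2 CPM a prior count of 2, and log2 ratios an added 0.5. Intervals of fold changes use the test's degrees of freedom. Correlations were tested with 100000 permutations in Python 3.11.15 (numpy 2.4.6). The fit was tested on simulated data.

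The 5 genes were chosen by symbol, but earlier results of these data were known when they and the gene lists were chosen. The 5 genes are always named. From a list, at most 4 called genes of largest change are named, or at most 2 defining genes where none is called, and genes like the globins are the 12 of highest and the 3 of lowest r. Other settings tried were DESeq2 1.42.0, scaling by median-of-ratios, all genes kept, library sizes without the 5 genes, no sex term, leaving out each library, and a block for the number. Leaving out PFC libraries 9 and 10, number 27, NAc libraries 6, 24 and 25, or numbers 8, 9, 10 and 15 was chosen after seeing the data.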

Additional observations from a re-analysis of the deposited data

Results flagged for a closer look

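Of 56 combinations of a measure and a group that were screened, 3 held a library far from the others of its group, and chance alone marks about 1 group in 20. In PFC Mor + 2W, library 10 had a Hbb-bt level of -3.96 log2 CPM, from 0 counts, against 0.506 to 1.23 log2 CPM in the other 6 libraries. In NAc Mor + 2W, library 11 had the lowest Hba-a1 level, 1.79 log2 CPM, against 3.02 to 3.80. In NAc Mor + 24h, library 24 had a Hbb-bt level of -0.44 log2 CPM, against 0.274 to 0.851 in the others, and it is also the NAc library with the highest cortical markers.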

How the results depend on the processing

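None of the 5 genes was called in a stage comparison under any alternative run, including each fit that left out 1 library. In NAc against PFC, Alas2 (-1.32 to -1.17) and Hba-a1 (-0.95 to -0.78) were called in every alternative. Hbb-bt lost its call with median-of-ratios scaling (adjusted p = 0.0677), with no low-count filter (0.0762) and with library sizes without the 5 genes (0.0506), and Hba-a2 with no filter (0.0517), all in edgeR, leaving 2 genes called with no filter and 2 without number 27.

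Counts over all genes moved more. DESeq2 called 173, 46 and 5 genes in PFC and 691, 132 and 30 in NAc (Chronic mor, Mor + 24h, Mor + 2W), 47 and 93 for sex by stage in PFC and NAc, and 28 for region by stage. With no filter there were 0 in PFC Mor + 2W, 27 in PFC sex by stage, 185 in NAc Chronic mor and 14 in NAc Mor + 24h. With no sex term there were 0 in PFC Mor + 2W, 156 in NAc Chronic mor and 11 in NAc Mor + 2W. Without PFC libraries 9 and 10 there were 154, 28 and 0 in PFC. Without number 27 there were 120 in NAc Chronic mor and 0 in NAc sex by stage, without NAc libraries 6, 24 and 25 there were 8 in NAc Mor + 24h, and without numbers 8, 9, 10 and 15 and with no sex term 3 in region by stage. The cause was not tested. Leaving out 1 library gave 46 to 178, 11 to 30 and 0 to 1 genes in PFC and 120 to 566, 3 to 49 and 1 to 5 in NAc.

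Some values changed sign, and none of these fold changes was called. In log2 units Hba-a1 in NAc Chronic mor was 0.14 without number 27, Alas2 was -0.07 in NAc Chronic mor and -0.07 in NAc Mor + 2W without NAc libraries 6, 24 and 25, and Hba-a2 in NAc Mor + 2W went from -0.67 ± 0.50 (SE) to 0.02 with no sex term. Leaving out 1 library gave, under Chronic mor in PFC, -0.35 to 0.06 for Hbb-bs and -0.39 to 0.08 for Hbb-bt. At Mor + 24h in PFC it gave -0.07 to 0.32 for Hba-a1, -0.05 to 0.32 for Hbb-bs and -0.22 to 0.24 for Hbb-bt, and at Mor + 2W in PFC -0.34 to 0.03 for Hbb-bs and -0.43 to 0.08 for Hbb-bt. In NAc it gave -0.22 to 0.26 for Hba-a1 and -0.09 to 0.23 for Alas2 under Chronic mor, -0.20 to 0.27 for Hba-a1 at Mor + 24h and -0.14 to 0.21 for Alas2 at Mor + 2W. Without removing group means, r in PFC turned from 0.517, which had passed the test, to -0.206 for Hba-a1 with Hba-a2, and from 0.315 to -0.006 for Hba-a2 with Alas2. Without PFC libraries 9 and 10, r was 0.680 for Hbb-bt with Alas2 in PFC and 0.196 for Hbb-bt between regions.

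The labels do not say that a shared number marks 1 animal. Over 30 pairs of same-numbered libraries the correlation of deviations was 0.01 to 0.22, with 5 over 0.1, and 14 of the numbers correlated best with their own partner. A fit with a replicate block called 12520 genes and 3 of the 5 in NAc against PFC (Hbb-bt edgeR adjusted p = 0.0885), and 5 genes and 0 of the 5 for region by stage. Under this pairing the log2 differences were -0.85 for alpha to beta globin and -1.20 for Alas2 to Hbb-bs. In percentage points, the share of Hba-a2 in alpha-globin counts differed by -0.87 and that of Hbb-bt in beta-globin counts by -1.35. Hba-a2, Hbb-bt and Alas2 had few counts per library, which limits what could be detected.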
